A study of Mus musculus with 12 samples.

Results

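The ubiquitin-coding genes Ubb and Rps27a were examined in NIH/3T3 cells, an established line of mouse embryonic fibroblasts. Ubb is a polyubiquitin gene and Rps27a a ubiquitin-ribosomal fusion gene. They were found by mapping the Ensembl gene IDs of the count table to mouse symbols, as 2 of 56980 genes, and both were among the 16648 genes abundant enough to test. The pseudogene Gm1821, a copy of Ubb, was measured beside them as a check on Ubb. Wild-type cells received DMSO, the vehicle, for 8 h in the control group (DMSO). The other groups received for the same time either 200 nM of carfilzomib (the CFZ group), 5 µM of doxorubicin (the DOX group) or the 2 agents at once at those doses (the CFZ-DOX group). Polyadenylated RNA was sequenced from 3 libraries of each group, 12 in all. Carfilzomib inhibits the proteasome, and doxorubicin is a DNA intercalator that poisons topoisomerase II. The labels do not say whether the 3 libraries of a group came from separate cultures, so p-values measure the spread between these libraries, which may be technical.

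Ubiquitin is a small protein that is joined to other proteins by E1, E2 and E3 enzymes, and chains of it mark proteins for the proteasome. It is made as part of longer precursors. Ubb encodes head-to-tail repeats that deubiquitinases cut into single units, and it is a classical stress gene that heat shock and proteasome inhibition induce. Rps27a encodes 1 unit fused to a protein of the small ribosomal subunit (eS31), and the fusion supplies ubiquitin together with ribosomes in growing cells.

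In the reading frames of GENCODE transcripts (reference build GRCm38), Ubb held 4 ubiquitin units and Rps27a held 1. Every unit had the same 76 residues. The DNA differed: over the 228 bases of a unit, that of Rps27a differed from the first unit of Ubb at 44 bases, while the second, the third and the last unit of Ubb differed from its first at 5, 2 and 10 bases. The first 60 bases of 3 units are shown because a sequencing read that lies within a unit can be given to Ubb or Rps27a only by these differences. Capitals mark the bases that differ from the first unit of Ubb.
Ubb first unit: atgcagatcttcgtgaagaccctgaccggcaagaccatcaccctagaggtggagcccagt
Ubb last unit: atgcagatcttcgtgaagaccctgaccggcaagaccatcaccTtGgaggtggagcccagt
Rps27a: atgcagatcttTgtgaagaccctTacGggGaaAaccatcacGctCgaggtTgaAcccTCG
In these 60 bases Rps27a differed at 12 positions and the last unit of Ubb at 2. The 4 units of Ubb were 95.6 to 99.1% identical to each other in bases.

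Gm1821 was almost the same sequence as part of Ubb, with 603 of 617 aligned bases identical (97.7%) and an identical run of up to 270 bases. The 90 coding bases of Ubb that begin at base 1077 of its transcript are shown with the matching stretch of Gm1821, because they hold 5 of the 14 differences, which are in capitals.
Ubb: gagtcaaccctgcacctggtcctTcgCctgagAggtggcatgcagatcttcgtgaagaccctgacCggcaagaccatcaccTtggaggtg
Gm1821: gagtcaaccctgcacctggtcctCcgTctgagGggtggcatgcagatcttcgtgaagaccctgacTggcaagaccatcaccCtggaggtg
Of all 100-base windows of the Ubb transcript, 52.4% also occurred in Gm1821 and 39.3% occurred nowhere else in the transcripts. Repeats within Ubb itself covered 23.7% of its windows. For Rps27a 30.9% of windows were unique, and the others were shared with processed pseudogenes. The treatment of reads that match several places is not given in the sources used here, and the counts of both genes are uncertain to the extent that reads were dropped or given to copies.

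On the mouse build GRCm39, Ubb lies at chr11:62441997-62444039 on the plus strand (ENSMUSG00000019505) and Rps27a at chr11:29495846-29498109 on the minus strand (ENSMUSG00000020460). Gm1821 lies at chr14:46321483-46322457 on the plus strand (ENSMUSG00000044285), on another chromosome than Ubb.

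The libraries held 28278879 to 42033993 counts. The fibroblast genes Col1a1, Col1a2, Vim and Fn1 averaged 4375 to 7941 CPM (counts relative to the TMM-adjusted library total) with DMSO, while 5 of 9 markers of other cell types (Epcam, Ptprc, Myog, Myod1 and Adipoq) had at most 14 counts in any library and the other 4 averaged at most 11.5 CPM in any group. That highest value was Cd68, a macrophage and lysosome marker, with CFZ-DOX, where DMSO had 1.16 CPM. Pecam1, an endothelial marker, averaged 0.131 CPM with DMSO, 1.80 with DOX and 1.85 with CFZ-DOX, and Cdh1, an epithelial one, 2.89 CPM with DMSO and 0.524 with CFZ. Of 8 fibroblast markers 3 were called lower with CFZ in all 5 scalings tried (by TMM, by upper quartile, by library size, by the size factors of DESeq2 and by ribosomal protein genes): Pdgfrb (187 to 45.1 CPM), Vim (4375 to 2588 CPM) and S100a4 (11.2 to 4.05 CPM). Of all genes tested 14.4% were called lower with CFZ. Against DMSO, 3 of the 8 were called higher and 2 lower with DOX, beside 36.1% and 31.3% of all genes tested. With CFZ-DOX 6 were higher and 2 lower, beside 39.3% and 35.7%. These lower calls held in all 5 scalings, and none of the higher ones did. The part of these markers in the results below was not tested. The third library of DOX and that of CFZ-DOX stood apart from the rest of their groups on a principal component that held 4.27% of the variance. The 77 other ribosomal protein genes took 3.9 to 4.38% of the counts in the DMSO and CFZ libraries, 6.69 to 7.25% in DOX and 9.98 to 10.6% in CFZ-DOX. This share moves with Rps27a, and relative counts cannot separate more of these transcripts per cell from less of the others. Fold changes of Ubb and Rps27a and counts of called list genes with doxorubicin are therefore also given after scaling to these 77 genes, which shifted the median over all tested genes by −0.87 (log2) in the DOX group and −1.65 in the CFZ-DOX group relative to DMSO, and by −0.78 in CFZ-DOX relative to DOX.

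With DMSO both genes were abundant. Levels between genes were compared per transcript length, as TPM (counts divided by exon length and brought to the same sum in every library). Rps27a had 954 ± 24.8 TPM (SD, n = 3) and Ubb 839 ± 27.5 TPM, ranks 132 and 160 among all genes. The lowest Rps27a library (926 TPM) lay above the highest Ubb library (867 TPM), so the levels did not overlap.

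**Figure D1:**
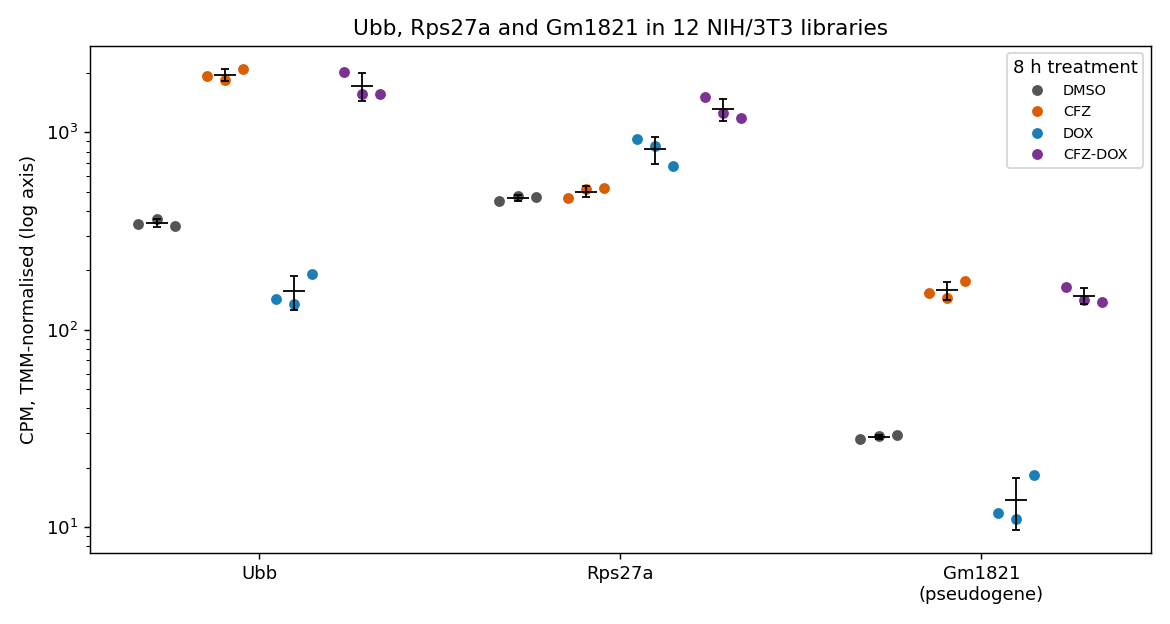
CPM (TMM-normalised, log axis) of Ubb, Rps27a and Gm1821 in 12 libraries, with points for libraries, horizontal marks for group means and bars for SD (n = 3). Ubb was high in both groups with carfilzomib and low with doxorubicin alone, while Rps27a was highest with both drugs.

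Carfilzomib alone raised Ubb, while Rps27a was not called. Ubb had 345, 365 and 334 CPM in the DMSO libraries and 1931, 1842 and 2096 CPM in the CFZ libraries. Every CFZ library was thus above every DMSO library, and the rise was 5.62-fold (log2 fold change 2.49, SE 0.18, edgeR adjusted p = 5.62e-07). By fold change Ubb ranked 198 among the 16648 genes tested. This is 1 of 2 genes called higher, where 14.4% of all genes tested were called higher and 14.4% lower.

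Rps27a had 448, 478 and 472 CPM with DMSO and 465, 519 and 520 CPM with CFZ, with groups that overlapped. Its log2 fold change was 0.11, with a 95% interval of −0.20 to 0.41 (edgeR adjusted p = 0.668). In terms of TPM, the treatment put Ubb (4443 ± 315 TPM, SD, n = 3) at rank 15 of all genes, above Rps27a (967 ± 58.8 TPM) at rank 123.

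Doxorubicin alone moved the genes in opposite directions: Ubb fell and Rps27a took a larger part of the counts. Ubb had 142, 136 and 192 CPM with DOX, all below the DMSO libraries, which is 2.22-fold lower (log2 fold change −1.15, SE 0.17, edgeR adjusted p = 4.82e-05). The third DOX library was the highest of its group for Ubb, and without it Ubb was 2.34-fold lower. Being called lower applied to 31.3% of all genes tested in this comparison.

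Rps27a had 927, 855 and 679 CPM with DOX, above every DMSO library (log2 fold change 0.82, SE 0.16, edgeR adjusted p = 0.00039). Here the third DOX library was the lowest of its group, and without it the rise was 2.05-fold rather than 1.76-fold. The call stands beside 36.1% of all genes tested called higher, and beside 76 of the 77 other ribosomal protein genes called higher, with a median log2 fold change of 0.91. Scaled to the ribosomal protein genes, the log2 fold change of Rps27a was −0.08 (edgeR adjusted p = 0.401). Under the same scaling Ubb was at −1.98, so its fall was called in all 5 scalings tried. The rise of Rps27a was called in all but ribosomal protein scaling. That scaling takes out any change that a gene shares with those 77 genes.

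With both drugs, both genes were called higher than with DMSO, where 39.3% of all genes tested were called higher and 35.7% lower. Ubb had 2030, 1561 and 1565 CPM (log2 fold change 2.30, SE 0.18, edgeR adjusted p = 6.36e-08). Rps27a had 1503, 1255 and 1182 CPM (a 2.82-fold rise, edgeR adjusted p = 1.21e-06). Neither gene overlapped with its DMSO libraries, but the share of all genes tested without such overlap is not given here. The call for Ubb held in all 5 scalings, and that for Rps27a in all but ribosomal protein scaling. Scaled to the ribosomal protein genes its log2 fold change was 0.64 (edgeR adjusted p = 0.00886), against −0.17 for Rps27a (edgeR adjusted p = 0.0671).

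**Figure D2:**
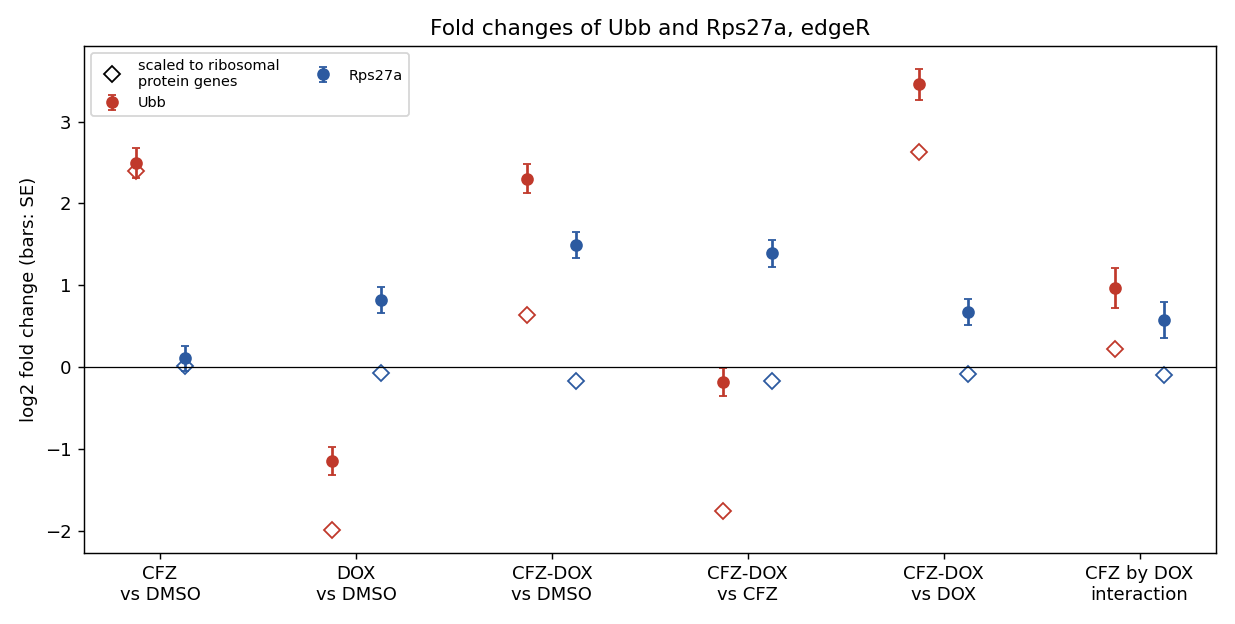
Log2 fold changes of Ubb and Rps27a in 6 comparisons (edgeR), with filled points and SE bars for TMM scaling and open diamonds for scaling to 77 ribosomal protein genes. For CFZ against DMSO the scalings nearly coincide, while with doxorubicin the diamonds lie lower, those of Rps27a between −0.17 and −0.08.

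Doxorubicin added to carfilzomib raised Rps27a, while Ubb was not called. The log2 fold change of Ubb against CFZ was −0.19, with a 95% interval of −0.52 to 0.15 (edgeR adjusted p = 0.33), but its sign depended on scaling, from −1.76 with ribosomal protein scaling to 0.36 with upper-quartile scaling. It was called lower in 2 of 5 scalings, ribosomal protein scaling (edgeR adjusted p = 3.21e-06) and library size (−0.46, edgeR adjusted p = 0.0324). With TMM, being called lower applied to 36.9% of all genes tested. The median log2 fold change over all genes tested was −1.46 with ribosomal protein scaling and −0.17 with library size scaling. Rps27a (log2 fold change 1.39, SE 0.16, edgeR adjusted p = 2.17e-06) was higher, as were 40.4% of all genes tested. Its rise was not called under ribosomal protein scaling, where it was at −0.17.

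Carfilzomib added to doxorubicin gave Ubb 1 of the largest rises of any gene. Between DOX and CFZ-DOX, Ubb rose 10.96-fold (log2 fold change 3.45, SE 0.19, edgeR adjusted p = 1.82e-07) and ranked 6 by fold change among the 16648 genes tested. Without the third DOX library the rise was 11.9-fold, and without the third CFZ-DOX library 11.4-fold. It was called in all 5 scalings, with ribosomal protein scaling giving the lowest log2 fold change, 2.63. Rps27a rose 1.60-fold (log2 fold change 0.68, SE 0.16, edgeR adjusted p = 0.0081). Both genes were thus called higher, against 10.3% of all genes tested, and all 77 other ribosomal protein genes were called higher too. With ribosomal protein scaling Rps27a was at −0.09, and with only the 6 libraries of this comparison in the model it was not called (edgeR adjusted p = 0.112).

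The effect of carfilzomib with doxorubicin was then set against its effect without, as the interaction in the same model. It was positive for Ubb (0.96 on the log2 scale, SE 0.24, edgeR adjusted p = 0.0135), 1 of 2 genes where 8.46% of all genes tested were called positive. Leaving out 1 library at a time, it ranged from 0.81 to 1.13 for Ubb and was called each time. For Rps27a it was 0.57 (SE 0.22, edgeR adjusted p = 0.0831), and again 0.57 with edgeR adjusted p = 0.0431 when the replicate number was a block. It was also called with DESeq2-type size factors (edgeR adjusted p = 0.0365), library size scaling (edgeR adjusted p = 0.0213), upper-quartile scaling (edgeR adjusted p = 0.0433), a filter of 1 CPM in 3 libraries (edgeR adjusted p = 0.0354), without the third CFZ-DOX library (edgeR adjusted p = 0.0306) and with DESeq2 (adjusted p = 0.00509). The call for Ubb was lost with library size scaling (0.79, edgeR adjusted p = 0.0507) and with ribosomal protein scaling, where the interaction was 0.23 for Ubb and −0.10 for Rps27a.

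The ratio between the genes within a library does not depend on how libraries are scaled. The counts of Ubb per count of Rps27a were 0.770, 0.764 and 0.709 with DMSO and 4.16, 3.55 and 4.03 with CFZ. They were 0.154, 0.159 and 0.283 with DOX and 1.35, 1.24 and 1.32 with CFZ-DOX, so the 4 groups did not overlap. Relative to Rps27a, Ubb was thus 5.22-fold higher with CFZ than with DMSO, 3.92-fold lower with DOX and 1.75-fold higher with CFZ-DOX. It was 2.99-fold lower with CFZ-DOX than with CFZ, and 6.86-fold higher than with DOX. Each of these 5 comparisons had p = 0.1 in the exact two-sided permutation test, the smallest that 3 libraries against 3 allow, and 0.1 after Benjamini-Hochberg adjustment over the 5.

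The order of the genes by TPM changed with treatment. With DOX, Rps27a (1313 ± 34.7 TPM, SD, n = 3, rank 120) stood above Ubb (306 ± 107 TPM, rank 517). With CFZ-DOX, Ubb (2550 ± 237 TPM, rank 60) stood above Rps27a (1656 ± 107 TPM, rank 108). The libraries of the 2 genes did not overlap in either group. These orders rest on the deposited exon lengths. The transcript of Rps27a is shorter (637 bases, against an exon length of 1972), and that of Ubb has 1499 bases. With CFZ-DOX the mean raw counts were 47060 for Ubb and 35880 for Rps27a. Per base of these transcripts, the order with CFZ-DOX is therefore the other way.

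Multiplying each TPM by the units in the reading frame gives the ubiquitin units that the Ubb and Rps27a transcripts of a library encode, on the TPM scale. This sum covers these 2 genes only, and it describes the RNA and not the protein. It also rests on the deposited exon lengths. With the 637 bases of its transcript in place of 1972, Rps27a would weigh more in the sums, folds and shares below. It was 4285, 4431 and 4220 in the DMSO libraries and 18500, 17600 and 20120 in the CFZ libraries. In the DOX libraries it was 2237, 2363 and 3004, and in the CFZ-DOX libraries 11960, 10760 and 12850. No group overlapped with another, and each of the 5 comparisons had p = 0.1 in the exact two-sided permutation test, the smallest possible. CFZ was 4.34-fold and CFZ-DOX 2.74-fold above DMSO, and DOX was 1.72-fold below it. With exon lengths, Ubb supplied 77.9 ± 0.795% (SD, n = 3) of the units of both genes in DMSO and 94.8 ± 0.414% in CFZ. It supplied 47.3 ± 8.54% in DOX and 86.0 ± 0.521% in CFZ-DOX. Shares with transcript lengths were not computed.

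**Figure D3:**
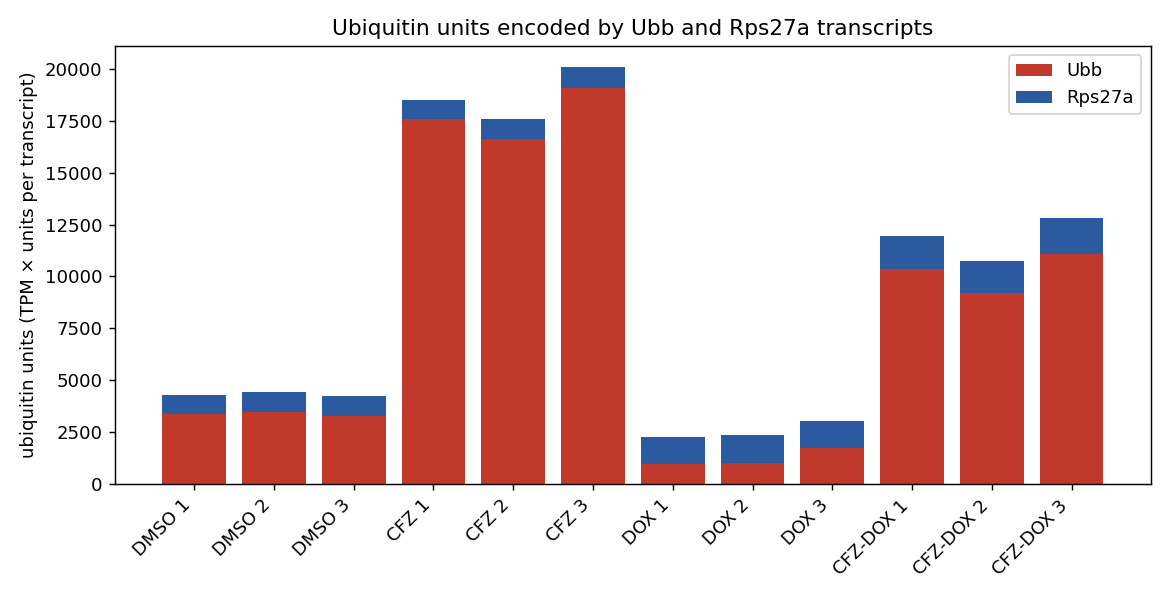
Ubiquitin units encoded by the transcripts of Ubb and Rps27a (TPM times units per transcript) in each of 12 libraries, stacked by gene. The bars are tallest with CFZ (17600 to 20120) and shortest with DOX (2237 to 3004), where Rps27a makes up the larger part in 2 of 3 libraries. The parts of the 2 genes depend on the deposited exon lengths used for TPM.

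Gm1821 followed Ubb in every library. It had 27.9, 29.0 and 29.2 CPM in the DMSO libraries and 153, 145 and 177 CPM in the CFZ libraries. The DOX libraries had 11.8, 11.03 and 18.3 CPM and the CFZ-DOX libraries 165, 142 and 138 CPM. Its log2 fold changes were 2.47 for CFZ, −1.06 for DOX and 2.37 for CFZ-DOX, all against DMSO, beside 2.49, −1.15 and 2.30 for Ubb. Of the counts of both genes together Gm1821 held 7.31 to 8.68% in the 12 libraries, although Ubb itself ranged from 4441 to 75629 counts. Adding its counts to Ubb left the interaction of Ubb at 0.96. Whether the counts of Gm1821 are transcripts of the pseudogene or reads of Ubb was not tested.

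**Figure D4:**
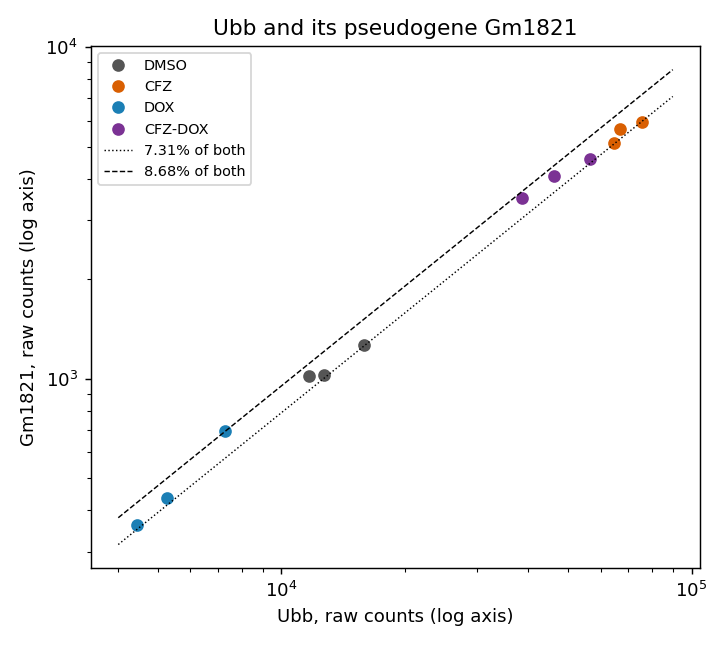
Raw counts of Gm1821 against those of Ubb in 12 libraries (both axes log), with lines where Gm1821 holds 7.31% and 8.68% of the counts of both. All libraries lie on or between the lines, from the DOX libraries at the lower left to the CFZ libraries at the upper right.

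Other copies took small parts. Pseudogenes that share 50-base windows with Rps27a held 0.567 to 0.843% of the counts of that gene and its copies. All those of Ubb, Gm1821 included, held 7.92 to 9.32%.

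With TMM, the nearest tested genes beside Rps27a were not called in either test of carfilzomib. Mtif2, 567 bases from Rps27a, had log2 fold changes of 0.29 for CFZ against DMSO and −0.26 for CFZ-DOX against DOX. Rtn4, the neighbour of Rps27a on the other side, had 0.13 and −0.57. For CFZ-DOX against DOX both were called lower with ribosomal protein scaling (Mtif2 −1.04, Rtn4 −1.37), and Rtn4 also with library size scaling (−0.83). Clhc1, which overlaps Rps27a, had at most 11 counts in any library. Next to Ubb, Trpv2 had at most 32 counts in any library.

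A transcript annotated at the 5′ end of Ubb, on the opposite strand, rose with carfilzomib as well. Gm12279 lies 130 bases from the start of Ubb. It had 35, 43 and 25 raw counts in the DMSO libraries, 145, 238 and 176 in the CFZ libraries, 103, 103 and 118 in the DOX libraries and 267, 187 and 327 in the CFZ-DOX libraries. Against DMSO the log2 fold changes were 2.55 (CFZ), 1.76 (DOX) and 3.40 (CFZ-DOX; edgeR adjusted p of 2.81e-06, 1.06e-05 and 1.84e-08), each called in all 5 scalings. With DOX, Gm12279 was therefore higher while Ubb was lower.

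A promoter sequence was found in the RefSeq table (build GRCm38.p6) for Ubb, with 2 annotated starts. The 250 bases before the first start, chr11:62550921-62551170 on the plus strand, are shown because the gene responded to both drugs. Capitals mark the letters CCAAT, a common promoter element.
Ubb promoter: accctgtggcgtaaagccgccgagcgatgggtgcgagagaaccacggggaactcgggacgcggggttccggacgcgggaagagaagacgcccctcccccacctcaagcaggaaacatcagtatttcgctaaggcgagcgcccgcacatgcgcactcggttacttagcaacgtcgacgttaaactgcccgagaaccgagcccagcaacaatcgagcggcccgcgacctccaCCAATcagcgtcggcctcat
The CCAAT match lies 20 bases before the start, and 33.8% of the 32851 promoters of the table, each of the same length, hold CCAAT on either strand. Neither start of Ubb had a match to the heat shock letters GAANNTTC or TTCNNGAA, each of which reads the same on both strands, and 12.8% of all promoters have 1 of them. No match says only that these letters are not in this window.

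Genes around ubiquitin were described from lists of the pathway. The heat shock factors and HSF1-dependent chaperone genes rose almost as a whole with carfilzomib alone: 16 of 17 were called higher and none lower, with a median log2 fold change of 2.06 against −0.01 over all genes tested, of which 14.4% were called higher and 14.4% lower. Dnajb1, an HSP40 co-chaperone, rose 8.58-fold and Hspa1b, an inducible HSP70, 8.58-fold, more than the 5.62-fold of Ubb. The 26S proteasome, which degrades proteins marked by ubiquitin, had 32 of 33 subunit genes higher and none lower (median 1.19). All these calls held in all 5 scalings. Of these, Psmb3 rose 3.27-fold and Psmc4 3.20-fold, less than Ubb.

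Between DOX and CFZ-DOX, 8 of 33 proteasome genes were higher and 1 lower, with a median of 0.09 against 0.03 over all genes tested, of which 10.3% were called higher and 12% lower. With ribosomal protein scaling none of the 33 was higher and 29 were lower. Of all 16648 genes tested, 126 were called higher and 8795 lower with that scaling. Of the heat shock list 6 of 17 were higher and none lower, with a median of 0.33, and with ribosomal protein scaling 3 were higher and 8 lower. The 3 that were higher in all 5 scalings were Hspa1b (12.3-fold), Hspa1a (10.8-fold) and Hspa8 (10.2-fold), beside 10.96-fold for Ubb. The CFZ-DOX libraries were uneven for the first 2 of these, with 117 ± 90.1 CPM for Hspa1b and 11.8 ± 10.6 CPM for Hspa1a (SD, n = 3), against 2830 ± 372 CPM for Hspa8, so no order among these folds and that of Ubb is drawn. The interaction was called negative for 30 of 33 proteasome genes (median −1.03, for example −1.73 for Psma5) and positive for none, with 23 negative in all 5 scalings. It was called negative for 11 of 17 heat shock genes, all 11 in all 5 scalings, such as Hsph1 (−2.63) and Dnaja1 (−2.20). Hspa8, the constitutive HSP70, was the 1 heat shock gene with a positive call (1.03), and it held in all 5 scalings, which that of Ubb did not. Being called negative applied to 11.2% of all genes tested.

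**Figure D5:**
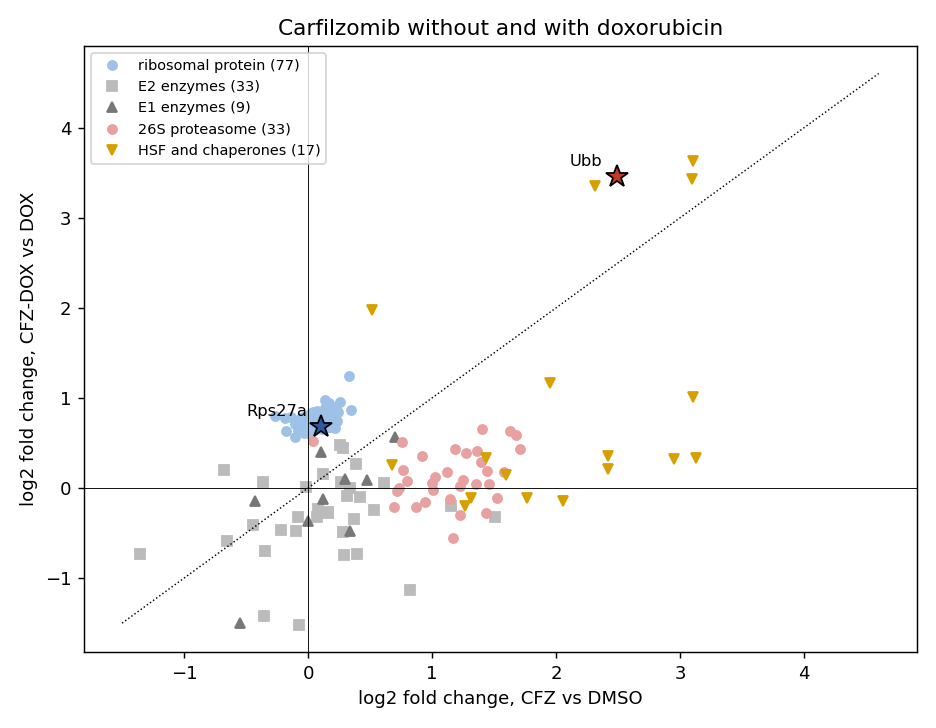
Log2 fold change with carfilzomib in the absence of doxorubicin (x axis) and in its presence (y axis) for 5 gene lists (tested members in brackets) and Ubb and Rps27a (stars). The dotted line marks equal values: Ubb lies above it at 2.49 on the x axis, Rps27a lies among the ribosomal protein genes, and most proteasome and many heat shock genes lie below it near 0 on the y axis.

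Enzymes that process or recycle ubiquitin rose with carfilzomib alone in 5 of 9 tested cases, and 1 fell (median 0.42), where 14.4% of all genes tested were called higher and 14.4% lower. Of these calls 3 of the 5 and the fall held in all 5 scalings. Usp14, a deubiquitinase at the proteasome, rose from 123 to 246 CPM (edgeR adjusted p = 0.000586), Psmd14, the deubiquitinase of the proteasome lid, 1.92-fold (edgeR adjusted p = 0.000455; it is also in the proteasome list) and Usp5, which takes apart free chains, 1.82-fold (edgeR adjusted p = 0.00123). Uchl3 was 1.41-fold lower (edgeR adjusted p = 0.0239). With doxorubicin alone 1 of 9 was called higher and 4 lower, where 36.1% of all genes tested were called higher and 31.3% lower. With ribosomal protein scaling none was higher and 8 were lower, with a median log2 fold change of −1.21 against −0.73 over all genes tested. The share of all genes called with that scaling is not given here. Usp7 (2.67-fold lower) and Usp9x (2.46-fold lower) were called in all 5 scalings. Between DOX and CFZ-DOX none was called higher and 2 lower, against 10.3% and 12% of all genes tested. With ribosomal protein scaling all 9 were lower in that comparison, as were 8795 of all 16648 genes tested. Usp5 (−0.24) and Usp14 (0.12) were not called in that comparison with TMM.

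The enzymes that activate and pass on ubiquitin changed in both directions with carfilzomib alone, where 14.4% of all genes tested were called higher and 14.4% lower. Of 9 E1 genes 1 was higher and 1 lower, and Uba1 (0.10) and Uba6 (0.00), the E1 enzymes of ubiquitin, were not called. With DOX, Uba6 was 2.08-fold lower in all 5 scalings (edgeR adjusted p = 4.45e-06), and Uba1 was 1.55-fold higher (edgeR adjusted p = 0.00454) but not in all scalings. Of 33 E2 genes 8 were higher and 2 lower with CFZ, of which 3 and 2 held in all 5 scalings. Ube2o rose 2.85-fold and Ube2f, an E2 of the ubiquitin-like protein NEDD8, 2.22-fold, while Ube2c, which acts in mitosis, was 2.56-fold lower. Between DOX and CFZ-DOX 1 E2 gene was higher and 11 lower, with Ube2d1 2.86-fold lower, against 10.3% of all genes tested called higher and 12% lower. With ribosomal protein scaling none was higher and 30 were lower, where 126 of all 16648 genes tested were higher and 8795 lower.

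Other proteins of the ubiquitin fold did not share 1 direction. Of 17 ubiquitin-like modifiers tested, 6 were higher and 3 lower with CFZ, where 14.4% of all genes tested were called higher and 14.4% lower. Gabarapl1, which acts in autophagy, rose 4.27-fold, and Sumo2 was 1.58-fold lower. Of the 6 and 3 calls, 3 and 3 held in all 5 scalings. With DOX 12 were higher and none lower, where 36.1% of all genes tested were called higher and 31.3% lower. But with ribosomal protein scaling 2 were higher and 5 lower. Their median log2 fold change was then −0.19, against −0.73 over all genes tested. Fau, a ubiquitin-like protein fused to a ribosomal protein as in Rps27a, was 1.94-fold higher with DOX, where Rps27a was 1.76-fold higher, and 3.51-fold higher with CFZ-DOX, where Rps27a was 2.82-fold higher. As for Rps27a, neither rise of Fau was called in all 5 scalings. Fau was not called with CFZ (log2 fold change 0.07, edgeR adjusted p = 0.814). Fau is in the ribosomal protein list too, so it is itself among the 77 genes that ribosomal protein scaling uses.

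Rps27a was also placed among the other ribosomal protein genes. Its log2 fold change lay within the range of the 77 genes in all 6 comparisons. For CFZ-DOX against DOX it was 0.68, where their median was 0.76 and their range 0.57 to 1.25. For DOX against DMSO 61 of the 77 had a larger value than its 0.82, and for CFZ against DMSO 30 had a larger value than its 0.11. Larger values were held by 64 for CFZ-DOX against CFZ (1.39 for Rps27a) and by 68 for the interaction (0.57). In every comparison except CFZ against DMSO, Rps27a lay below the lower quartile of the 77 genes. Whether this position is particular to Rps27a was not tested.

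Across the 12 libraries, which fall into 4 treatment groups so that a correlation mostly reflects group means, log2 CPM of Ubb and Gm1821 had a Pearson r of 0.999 and Ubb and Rps27a one of 0.146. Among 9416 candidate genes, those most like Ubb were Gps2 (r = 0.977), Fiz1 (0.954), Hspa1b (0.953), Yju2 (0.949) and Hspa8 (0.941). Their sizes of change differed widely: for CFZ against DMSO, Gps2 had a log2 fold change of 0.67 and Hspa1b one of 3.10. Rps27a was most like Rpl32, Rpl26, Rpl14 and Rps7 (0.999 each) and Rps14 (0.998), all ribosomal protein genes.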

How the data were processed

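Per the submitters' processing notes, the authors trimmed, mapped and counted reads on GRCm39 (Trimmomatic 0.39, STAR 2.7.9a, and Subread 2.0.2 for featureCounts) and deposited raw counts per Ensembl gene with exon lengths. Annotation release, strand setting and handling of multi-mapped reads are not given in the sources used here. Groups came from the sample titles. Symbols were matched for 52073 of 56980 IDs (91.4%). The members, lists and tests were chosen with earlier results of these data known. Some results on ubiquitin-coding genes are not reported here.

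Genes were kept with filterByExpr (minimum count 10, minimum total 15) and tested with the quasi-likelihood F test of edgeR 4.0.16 (R 4.3.3, TMM, robust, 1 model of 12 libraries with a mean per group, prior count 0.125). P-values were adjusted by Benjamini-Hochberg over all 16648 genes and called under 0.05. SE is the absolute log2 fold change over the square root of F, and 95% intervals are normal ones from it. The interaction is the CFZ effect with DOX minus that without. CPM is TMM-normalised. TPM was computed from the counts and the deposited exon length of each gene, in bases. Ubiquitin units were counted in the longest reading frame of GENCODE vM21 transcripts, since no protein table was used here, and shared windows were counted in the same transcripts. Named genes were all members, Gm1821, up to 4 called list members in each direction with the largest change and at least 5 CPM, Uba1, Uba6, Usp5 and Usp14, nearest tested neighbours, and the 5 genes most like each member.

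No replicate pair agreed within sampling noise (chi-square per degree of freedom 13.8 or more). Same-numbered libraries deviated together in DMSO and CFZ (r 0.32, 0.26 and 0.37), DMSO and DOX (0.23, 0.23 and 0.21), CFZ and DOX (0.23, 0.16 and 0.21) and DOX and CFZ-DOX (0.55, 0.31 and 0.63), but not in every pair of DMSO and CFZ-DOX (0.27, 0.043 and 0.083) or CFZ and CFZ-DOX (0.24, 0.0066 and 0.096). On simulated counts for CFZ against DMSO (16041 genes), 59% of 2-fold and 86% of 4-fold changes were called, with 5.23% false calls. There only a small share of genes was changed, in CFZ alone and evenly in both directions, so these rates need not hold for the real comparisons. The alternatives were 4 other scalings, other filters, DESeq2 1.42.0, limma-voom (limma 3.58.1), a stricter adjusted p, a replicate block, only the 6 libraries compared, Gm1821 counts added to Ubb, CPM in place of TPM, and leaving out each library.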

Additional observations from a re-analysis of the deposited data

Results flagged for a closer look

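The effect of carfilzomib differed with and without doxorubicin for Ubb and for its pseudogene Gm1821, by the interaction term of the edgeR model. The log2 difference was 0.96 for Ubb (adjusted p = 0.0135) and 0.97 for Gm1821 (adjusted p = 0.0121). For Ubb the 2 effects were 2.49 without and 3.45 with doxorubicin, and for Gm1821 2.47 and 3.44. The baseline differed as well, since Ubb had 348 CPM with DMSO and 157 CPM with DOX. The part of the ribosomal protein genes in the libraries moved with these differences, and scaled to those genes neither was called. With library size scaling neither was called as well (0.79 for Ubb, adjusted p = 0.0507, and 0.79 for Gm1821, adjusted p = 0.113). Gm1821 and Ubb are not independent results, since 52.4% of the 100-base windows of Ubb also occur in Gm1821.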

How the results depend on the processing

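The rise of Ubb with carfilzomib, with and without doxorubicin, and its fall with doxorubicin kept direction and call under every alternative run. The Ubb to Rps27a ratio and the encoded units of these genes kept their direction in all alternatives run. Transcript lengths in place of exon lengths were not among them. Ribosomal protein scaling turned the sign of Rps27a for DOX (−0.077), for CFZ-DOX relative to DMSO (−0.17), CFZ (−0.17) and DOX (−0.088) and for the interaction (−0.10). Under it the interactions of Ubb (0.23) and Gm1821 (0.23) were no longer called, and Ubb against CFZ became called (−1.76). Called genes rose to 8921 (126 higher, 8795 lower) for CFZ-DOX against DOX and 5457 (248 and 5209) for the interaction, where TMM gave 3727 (1722 and 2005) and 3270 (1408 and 1862). Upper-quartile scaling turned CFZ-DOX against CFZ for Ubb (0.36) and Gm1821 (0.45) and gave the interaction of Rps27a a call (0.74). Library size scaling gave calls to Ubb against CFZ (−0.46) and the interaction of Rps27a (0.45), and took that of the interaction of Ubb (0.79). The interaction of Rps27a was also called with DESeq2-type size factors (0.63), with DESeq2 (0.63) and with a filter of 1 CPM in 3 libraries (0.65). Gm1821 against CFZ turned to 0.071 with that filter and to 0.057 with only the 6 libraries compared. That last fit gave 7925 called genes for CFZ and 1118 for CFZ-DOX against DOX, with Rps27a not called at 0.66 in the latter. At an adjusted p under 0.01 the counts were 2827 for CFZ, where 0.05 gave 4797, 1577 for CFZ-DOX against DOX and 1393 for the interaction, and the interaction of Ubb (0.96) was not called. With the replicate number as a block, 5031 genes had a called interaction and that of Rps27a was called (0.57). The block changed no other call of Ubb or Rps27a. Leaving out 1 library at a time, the interaction was called for 2149 to 4898 genes (2149 without the third CFZ library). It ranged from 0.44 to 0.66 for Rps27a, called without the third CFZ-DOX library. The cause of these changes was not tested.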
